A study of Homo sapiens with 12 samples.

Results

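The transcription factor NRF2, its inhibitor KEAP1 and 8 antioxidant targets were described in human macrophages made from the PPRE-eGEP-THP-1 line. The 10 genes were taken by symbol from the 58907 genes counted: NFE2L2, which encodes NRF2, KEAP1, SLC7A11, GCLC, GCLM, TXN, TXNRD1, SRXN1, NQO1 and OSGIN1. All 10 were found and all 10 were among the 15252 genes that passed the filter on low counts. In resting cells KEAP1 hands NRF2 to a ubiquitin ligase and keeps it scarce. Electrophiles and oxidants modify cysteines of KEAP1, NRF2 then accumulates, pairs with small MAF proteins and binds antioxidant response elements near genes for glutathione synthesis, thioredoxin recycling and quinone reduction. Since much of this control acts on the protein, the level of NFE2L2 RNA need not follow NRF2 activity, and in macrophages the pathway is known for restraining inflammatory gene expression.

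THP-1 is a human monocytic leukaemia line, and every group came from the same derivative of it, whose reporter name the labels do not expand. All cells were differentiated for 48 h with 25 ng/mL phorbol 12-myristate 13-acetate and rested for 24 h before a polarization step of 24 h. The 4 groups of 3 libraries were M1 cells with MCHP, M1 cells with DMSO, M2 cells with MCHP and M2 cells with DMSO. M1 cells received 100 ng/mL lipopolysaccharide with 20 ng/mL interferon gamma, M2 cells received interleukin 4 and interleukin 13 (20 ng/mL each), and MCHP (monocyclohexyl phthalate, the monoester of the plasticizer dicyclohexyl phthalate) was given at 100 µM. The design text calls the 3 libraries of a group biological replicates but does not say that they came from separate cultures, so p-values measure the spread between these libraries. In bulk RNA, fewer cells of a type and less RNA per cell cannot be told apart.

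Depth was 14352202 to 16871233 counts per library. M2 DMSO replicate 1 stood apart: its log2 levels deviated from the others of its group with an SD of 0.33 over well-counted genes, against 0.14 to 0.21 in the other 11 libraries. Of 8 macrophage markers 7 passed the filter, with a summed level of 1646 to 1657 CPM (library-scaled counts, with TMM factors) in M1 MCHP, 1698 to 1773 in M1 DMSO, 1476 to 1505 in M2 MCHP and 1534 to 1720.2 in M2 DMSO libraries, while CD68 had 36 counts in all libraries together. Some macrophage markers moved with polarization, in both directions. CD14 averaged 66.5 CPM in M1 MCHP, 69.3 in M1 DMSO, 7.49 in M2 MCHP and 7.98 in M2 DMSO libraries. ITGAM averaged 363, 356, 741 and 797 CPM in the same order. The M1 marker CXCL10 averaged 276 CPM in M1 MCHP, 348 in M1 DMSO, 0.794 in M2 MCHP and 0.478 in M2 DMSO libraries. Other M1 markers were less exclusive. The M1 list summed to 11472 to 11997 CPM in M1 MCHP, 11407 to 12122 in M1 DMSO, 4803 to 5773 in M2 MCHP and 5594 to 5813 in M2 DMSO libraries. Most of it was IL1B, which averaged 10353, 10428, 5272 and 5638 CPM in the same order. TNF averaged 192, 160, 51.2 and 64.6 CPM, and CCR7 and CD80 had 39 and 191 counts in all. The M2 list summed to 2392 to 2412 CPM in M1 MCHP, 2190.3 to 2239 in M1 DMSO, 11303 to 11497 in M2 MCHP and 8843 to 11228 in M2 DMSO libraries. Most of this sum was TGM2, which averaged 2295, 2115, 10046 and 9391 CPM in the same order. Its member MRC1 had 2 counts in all. CLEC10A was higher in both M1 groups (18.1 CPM in M1 MCHP and 22.3 in M1 DMSO libraries, against 0.708 in M2 MCHP and 1.43 in M2 DMSO libraries). CCL13 was higher in M1 under MCHP (3.07 against 1.93 CPM) and lower in DMSO (3.88 against 4.77 CPM). Defining markers of T cells (CD2), B cells (MS4A1) and fibroblasts (COL3A1, DCN) had no count, and no adipocyte or endothelial marker passed the filter. Single members of those lists did move with polarization: COL1A1 averaged 130.1 CPM in M1 MCHP, 116 in M1 DMSO, 27.6 in M2 MCHP and 27.6 in M2 DMSO libraries, and TRAC 11.5, 15.9, 20.3 and 32.6 CPM in the same order. Their part in the results was not tested.

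The members fell into well-counted and sparsely counted genes. Scaled by length (CPM per kilobase of gene model, mean over 12 libraries), TXN stood at 33.5, NFE2L2 at 30.7, KEAP1 at 27.7, TXNRD1 at 22.2, SLC7A11 at 14.3, GCLC at 11.9, GCLM at 7.24, NQO1 at 1.76, SRXN1 at 1.34 and OSGIN1 at 0.696. TXN, thioredoxin itself, ranged over libraries between 26.0 and 46.6 on this scale, NFE2L2 between 19.7 and 40.05, KEAP1 between 20.3 and 30.03 and TXNRD1 between 16.7 and 27.3, so these 4 neighbours overlapped and their order is not fixed. SLC7A11 (12.6 to 15.4) and GCLC (9.82 to 14.01) overlapped too. The gap between GCLM, at 5.98 or more in every library, and NQO1, at 2.44 or less, held in all 12 libraries. The order of NFE2L2 and TXNRD1 was not the same in every group: per kilobase NFE2L2 averaged 37.7 ± 1.74 in M1 MCHP, 39.1 ± 0.815 in M1 DMSO, 20.5 ± 0.964 in M2 MCHP and 25.4 ± 4.45 in M2 DMSO libraries (SD, n = 3 each). TXNRD1 averaged 20.2 ± 0.611, 16.99 ± 0.393, 26.97 ± 0.392 and 24.6 ± 0.656 per kilobase in the same groups and order. In both M1 groups every library had more NFE2L2 than TXNRD1 on this scale, in M2 MCHP every library had less, and in M2 DMSO the ranges overlapped. The range of group means over the 4 groups, on the log2 scale, was 0.93 for NFE2L2, 0.67 for TXNRD1 and 0.62 for NQO1, and 0.14 for SLC7A11 at the other end.

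**Figure D1:**
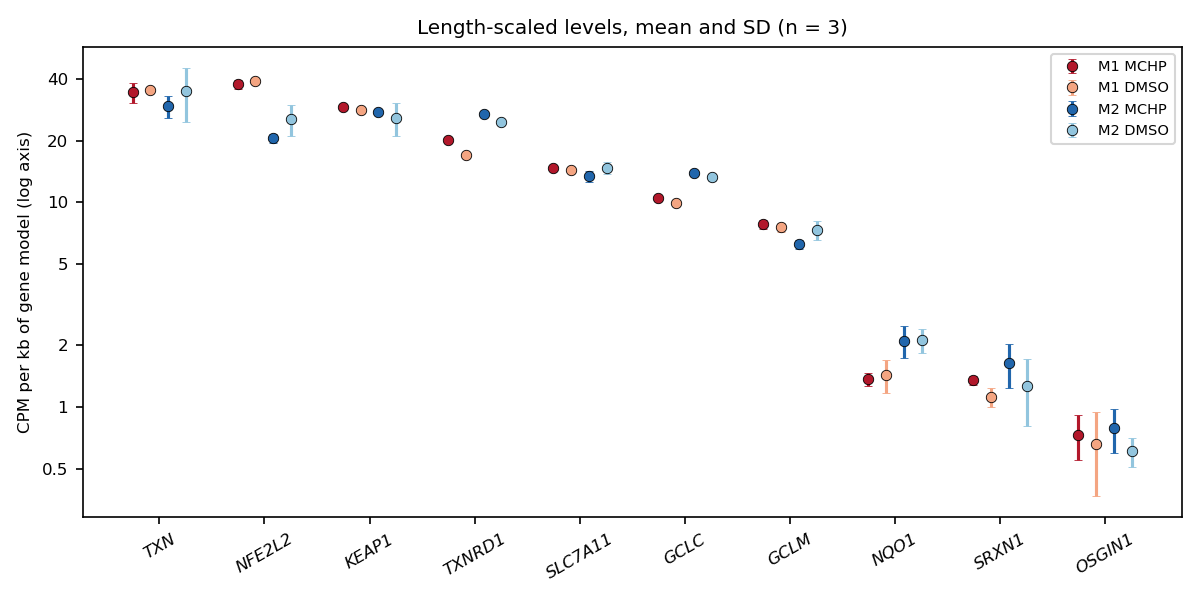
Level of each gene in CPM per kilobase of gene model (log axis), mean and SD of 3 libraries, for M1 MCHP, M1 DMSO, M2 MCHP and M2 DMSO. NQO1, SRXN1 and OSGIN1 lie below the other 7 genes in every group, and NFE2L2 lies above TXNRD1 in both M1 groups and below it in M2 MCHP.

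Promoter windows were searched for the core of the antioxidant response element, TGACNNNGC, on both strands. RefSeq windows on GRCh38.p14 run from 250 bases before to 50 after a gene's start, and 12 windows matched 9 members, some with several starts. SLC7A11 had no window and was not searched. The core was present in 4 windows of 3 members (TXNRD1, GCLM and KEAP1), beside 4687 of 35116 windows of the same length in the genome (13.3%). KEAP1 had 2 windows, of which window 1 is shown and window 2 held no match. The first 4 sequences are shown because they hold the motif, and those of GCLC and NQO1 because these genes differed between M1 and M2 together with TXNRD1 and hold none in this window. Each runs 5′ to 3′ on the gene's strand, and capitals mark the motif or its reverse complement.
TXNRD1 window 1 (chr12:104215529-104215828, plus strand): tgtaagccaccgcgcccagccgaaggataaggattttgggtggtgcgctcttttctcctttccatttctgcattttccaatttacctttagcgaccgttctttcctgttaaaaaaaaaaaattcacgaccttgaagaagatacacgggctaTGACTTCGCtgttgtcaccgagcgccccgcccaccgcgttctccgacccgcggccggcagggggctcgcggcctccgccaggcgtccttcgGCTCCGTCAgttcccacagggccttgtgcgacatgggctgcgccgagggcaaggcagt
TXNRD1 window 2 (chr12:104286782-104287081, plus strand): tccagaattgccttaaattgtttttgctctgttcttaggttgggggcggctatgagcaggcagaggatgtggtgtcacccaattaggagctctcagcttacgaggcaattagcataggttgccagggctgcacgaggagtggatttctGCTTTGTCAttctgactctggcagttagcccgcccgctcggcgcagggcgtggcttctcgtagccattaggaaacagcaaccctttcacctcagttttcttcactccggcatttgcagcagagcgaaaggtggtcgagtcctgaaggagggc
GCLM (chr1:93909381-93909680, minus strand): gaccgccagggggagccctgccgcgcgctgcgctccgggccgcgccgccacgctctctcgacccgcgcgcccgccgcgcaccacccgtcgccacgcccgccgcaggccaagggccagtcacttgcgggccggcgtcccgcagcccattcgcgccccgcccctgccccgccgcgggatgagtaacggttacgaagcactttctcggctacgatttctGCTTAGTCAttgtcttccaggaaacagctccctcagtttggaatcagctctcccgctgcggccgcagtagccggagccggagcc
KEAP1 (chr19:10502722-10503021, minus strand): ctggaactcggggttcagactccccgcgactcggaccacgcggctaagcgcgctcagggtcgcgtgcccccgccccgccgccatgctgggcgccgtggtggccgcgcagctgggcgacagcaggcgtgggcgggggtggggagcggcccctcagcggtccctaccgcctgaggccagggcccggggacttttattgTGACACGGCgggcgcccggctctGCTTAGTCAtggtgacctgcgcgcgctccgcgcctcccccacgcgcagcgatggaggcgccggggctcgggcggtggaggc
GCLC (chr6:53545052-53545351, minus strand): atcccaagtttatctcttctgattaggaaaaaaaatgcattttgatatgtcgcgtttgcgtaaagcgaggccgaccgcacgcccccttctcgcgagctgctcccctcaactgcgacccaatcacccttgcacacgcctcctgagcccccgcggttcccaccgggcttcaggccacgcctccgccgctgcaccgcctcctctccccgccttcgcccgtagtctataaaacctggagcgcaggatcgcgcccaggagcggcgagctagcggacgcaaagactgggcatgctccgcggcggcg
NQO1 (chr16:69726511-69726810, minus strand): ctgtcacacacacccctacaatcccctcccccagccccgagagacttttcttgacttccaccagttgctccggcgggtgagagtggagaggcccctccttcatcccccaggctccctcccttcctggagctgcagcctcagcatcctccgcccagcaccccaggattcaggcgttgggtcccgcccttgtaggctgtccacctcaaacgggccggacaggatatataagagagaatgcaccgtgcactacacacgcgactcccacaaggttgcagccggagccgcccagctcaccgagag

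Counted from the first base of a window, TXNRD1 window 1 held the motif at bases 152 to 160 and, on the other strand, at 243 to 251. TXNRD1 window 2 held it at bases 149 to 157, on the other strand. GCLM (217 to 225) and KEAP1 (220 to 228) shared the same 9 letters, TGACTAAGC on the strand opposite to the gene, and KEAP1 held another match at 197 to 205. The AP-1 type motif TGANTCA, present in 7.71% of all windows, occurred among the members in the OSGIN1 window alone, at bases 154 to 160. That window held no TGACNNNGC. A match describes letters and not a bound site, and its absence says only that these letters are not in this window.

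Whether MCHP or DMSO was present, M1 cells had more NFE2L2 RNA than M2 cells and less of GCLC, NQO1 and TXNRD1. With MCHP, GCLM was also higher in M1 cells. In edgeR's quasi-likelihood test with Benjamini-Hochberg adjustment over all 15252 genes (passing means an adjusted p under 0.05), 5 of 10 members passed between M1 and M2 under MCHP, 2 higher and 3 lower in M1, and 4 of 10 passed in DMSO, 1 higher and 3 lower. Over all genes, 44.6% passed under MCHP (21.9% higher and 22.7% lower in M1) and 42.5% in DMSO (21.6% higher and 20.9% lower). Scaling by library size alone moved this balance, to 2678 genes higher and 4338 lower in M1 under MCHP (3342 and 3462 with TMM) and 2395 higher and 4532 lower in DMSO (3296 and 3193 with TMM). The members' median log2 fold changes of M1 over M2 were -0.013 under MCHP and -0.010 in DMSO. The members' shares are near the background, and the results lie in which members moved and in which direction.

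NFE2L2 (ENSG00000116044) lies on the minus strand of chromosome 2 at 177227595 to 177392697 (hg38, as the table gives it). It had 237, 219 and 219.7 CPM in M1 MCHP, 239, 231 and 231 in M1 DMSO, 121, 129 and 118 in M2 MCHP and 182, 140.4 and 133 CPM in M2 DMSO libraries. Every M1 library was above every M2 library, and M2 DMSO replicate 1 was the highest of the M2 libraries. M1 cells held 1.83-fold the M2 level under MCHP (log2 fold change 0.87 ± 0.089, SE, adjusted p = 1.7e-07) and 1.54-fold in DMSO (0.62 ± 0.088, adjusted p = 1.2e-05). Without M2 DMSO replicate 1, the log2 fold change in DMSO was 0.77 (adjusted p = 2.7e-13). The gene model overlaps that of AGPS on the opposite strand, which had 10286 counts over all libraries against 34003 for NFE2L2, and no strand setting is given.

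KEAP1 (ENSG00000079999, chromosome 19, 10486120 to 10503741, minus strand) had 113, 106 and 111 CPM in M1 MCHP, 105, 108 and 105 in M1 DMSO, 107, 102 and 104 in M2 MCHP and 76.5, 108 and 106 CPM in M2 DMSO libraries. The groups overlapped, and the lowest value was again M2 DMSO replicate 1, in the direction opposite to NFE2L2. The log2 fold change of M1 over M2 was 0.078 under MCHP (95% interval -0.12 to 0.28, adjusted p = 0.53) and 0.13 in DMSO (-0.069 to 0.33, adjusted p = 0.30).

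**Figure D2:**
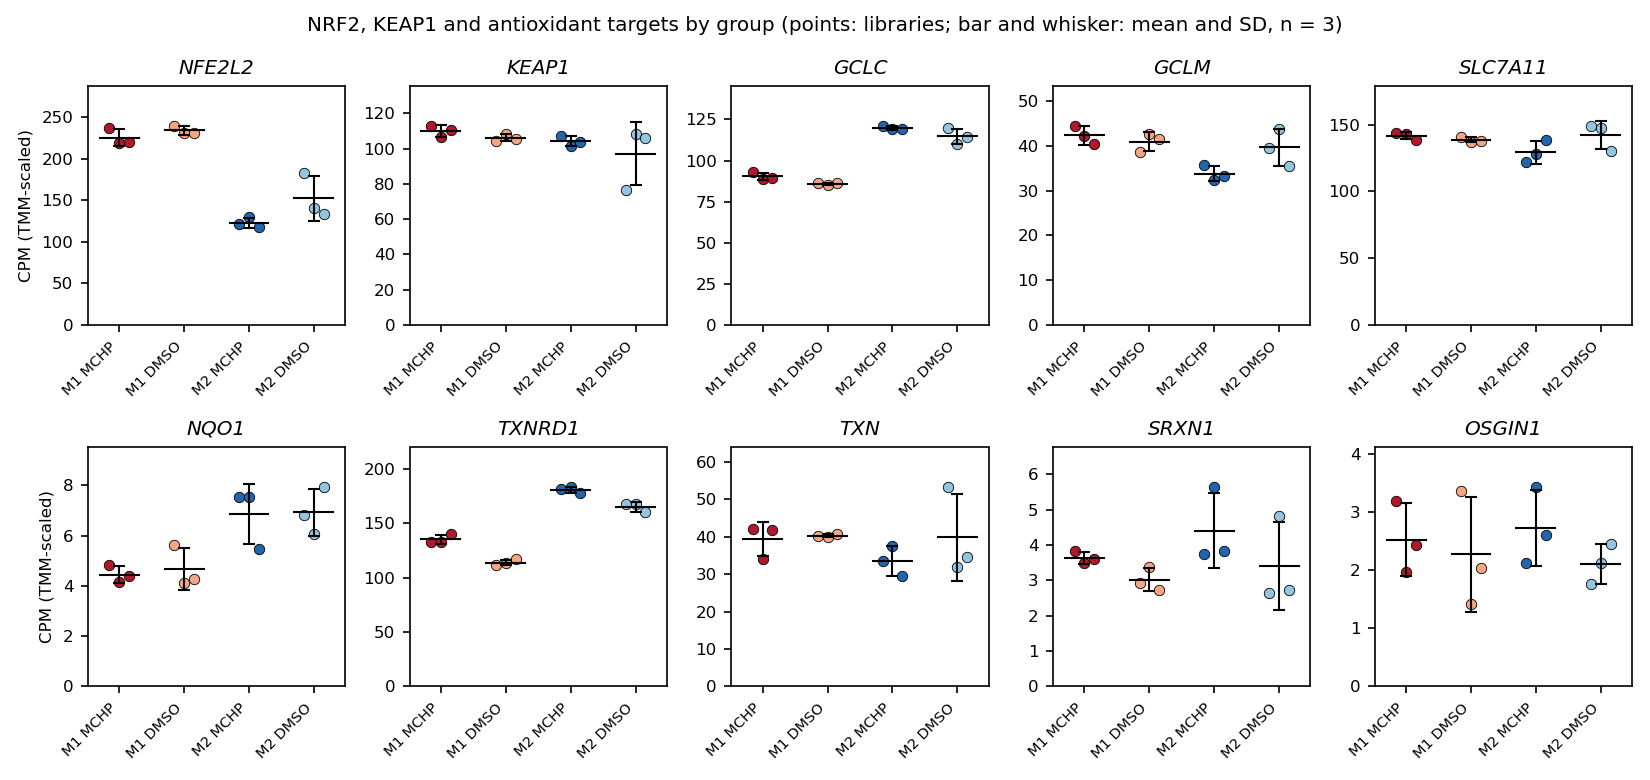
TMM-scaled CPM of each gene in every library (points), with the mean and SD of 3 libraries, for M1 MCHP, M1 DMSO, M2 MCHP and M2 DMSO; each panel has its own axis from 0. NFE2L2 is higher in M1, GCLC, NQO1 and TXNRD1 are higher in M2, and M2 DMSO replicate 1 is the leftmost point of its group.

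The genes of glutathione synthesis did not move as a unit. SLC7A11 is the light chain of the cystine importer that supplies cysteine, and GCLC and GCLM are the catalytic and modifier subunits of glutamate-cysteine ligase, the first and rate-limiting enzyme. GCLC (ENSG00000001084, chromosome 6, 53497341 to 53616970, minus strand) had 92.9, 88.6 and 89.6 CPM in M1 MCHP, 86.2, 84.9 and 86.1 in M1 DMSO, 121, 119 and 119 in M2 MCHP and 119.6, 110.3 and 114 CPM in M2 DMSO libraries. All 6 M1 libraries lay below all 6 M2 libraries. The level in M1 was 0.75 of that in M2 under MCHP (log2 fold change -0.41 ± 0.056, SE, adjusted p = 8.8e-06) and 0.75 in DMSO (-0.42 ± 0.057, adjusted p = 6.4e-06).

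GCLM (ENSG00000023909, chromosome 1, 93885205 to 93909456, minus strand) went the other way from its partner subunit under MCHP. It had 44.5, 42.2 and 40.4 CPM in M1 MCHP, 38.7, 42.7 and 41.7 in M1 DMSO, 35.8, 32.4 and 33.3 in M2 MCHP and 39.5, 43.9 and 35.6 CPM in M2 DMSO libraries. Under MCHP the M1 and M2 values did not overlap and M1 was 1.25-fold higher (log2 fold change 0.33 ± 0.085, SE, adjusted p = 0.0042). In DMSO the groups overlapped, with a log2 fold change of 0.048 (95% interval -0.13 to 0.22, adjusted p = 0.68). SLC7A11 (ENSG00000151012, chromosome 4, 138164097 to 138242349, minus strand) was the steadiest member, at 144, 143 and 139 CPM in M1 MCHP, 141, 137 and 138 in M1 DMSO, 122, 128 and 138 in M2 MCHP and 149, 147 and 130.4 CPM in M2 DMSO libraries. Under MCHP its M1 libraries lay just above the M2 libraries, with a log2 fold change of 0.13 (-0.0038 to 0.27, adjusted p = 0.11), which passed when M2 DMSO replicate 1 was left out of the fit (0.13, adjusted p = 0.031). In DMSO it was -0.036 (-0.17 to 0.10, adjusted p = 0.69).

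In the thioredoxin system, the reductase passed in both comparisons and its substrate in neither. TXNRD1, thioredoxin reductase of the cytosol, passes electrons from NADPH to thioredoxin (TXN), and sulfiredoxin (SRXN1) repairs overoxidized peroxiredoxins. TXNRD1 (ENSG00000198431, chromosome 12, 104215779 to 104350305, plus strand) had 133, 133 and 140.3 CPM in M1 MCHP, 112, 113 and 117 in M1 DMSO, 182, 183 and 178 in M2 MCHP and 168, 168 and 160.2 CPM in M2 DMSO libraries. None of the 4 groups overlapped another. The level in M1 was 0.75 of that in M2 under MCHP (log2 fold change -0.42 ± 0.054, SE, adjusted p = 4.0e-06) and 0.69 in DMSO (-0.54 ± 0.055, adjusted p = 1.7e-07). A processed pseudogene, RPL18AP3, lies in the TXNRD1 model on the same strand and was given 10090 counts against 28077 for TXNRD1, so the assignment of reads in that stretch is uncertain.

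TXN (ENSG00000136810, chromosome 9, 110243811 to 110256640, minus strand) had 42.01, 34.1 and 41.8 CPM in M1 MCHP, 40.3, 39.8 and 40.7 in M1 DMSO, 33.6, 37.7 and 29.6 in M2 MCHP and 53.2, 31.95 and 34.5 CPM in M2 DMSO libraries. M2 DMSO replicate 1 was the highest of all 12 libraries and the others of its group were among the lowest. M1 over M2 was 0.22 on the log2 scale under MCHP (95% interval -0.085 to 0.53, adjusted p = 0.23) and 0.016 in DMSO (-0.29 to 0.32, adjusted p = 0.95). Without that library, TXN passed in both: 0.22 under MCHP (adjusted p = 0.025) and 0.28 in DMSO (adjusted p = 0.014). SRXN1 (ENSG00000271303, chromosome 20, 646615 to 653370, minus strand) had few counts, 61, 48 and 55 in M1 MCHP, 41, 50 and 43 in M1 DMSO, 58, 97 and 56 in M2 MCHP and 42, 82 and 48 counts in M2 DMSO libraries. Replicate 2 was the highest library in both M2 groups, the groups overlapped, and the log2 fold changes of M1 over M2 were -0.28 under MCHP (95% interval -0.77 to 0.21) and -0.18 in DMSO (-0.69 to 0.33), neither of which passed.

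NQO1 (ENSG00000181019, chromosome 16, 69706996 to 69726951, minus strand), a quinone reductase often used as the standard NRF2 readout, was sparsely expressed here. It had 77, 57 and 67 counts in M1 MCHP, 79, 61 and 67 in M1 DMSO, 117, 130 and 80 in M2 MCHP and 108, 103 and 139 counts in M2 DMSO libraries. Scaled by library these were 4.82, 4.14 and 4.39 CPM in M1 MCHP, 5.65, 4.11 and 4.26 in M1 DMSO, 7.55, 7.55 and 5.48 in M2 MCHP and 6.80, 6.06 and 7.92 CPM in M2 DMSO. At a given treatment the M1 and M2 values did not overlap. The level in M1 was 0.65 of that in M2 under MCHP (log2 fold change -0.62 ± 0.18, SE, adjusted p = 0.0078) and 0.67 in DMSO (-0.57 ± 0.18, adjusted p = 0.013). The call in DMSO was lost without M1 DMSO replicate 2 (adjusted p = 0.063), M1 DMSO replicate 3 (0.059) or M2 DMSO replicate 3 (0.067). OSGIN1 (ENSG00000140961, chromosome 16, 83948282 to 83966332, plus strand), an oxidative stress induced growth inhibitor, had 51, 27 and 37 counts in M1 MCHP, 47, 21 and 32 in M1 DMSO, 33, 59 and 38 in M2 MCHP and 28, 36 and 43 counts in M2 DMSO libraries. Its groups overlapped, and the log2 intervals were wide: -0.71 to 0.50 under MCHP and -0.54 to 0.72 in DMSO. The groups of M1 and M2 did not overlap for 6 members under MCHP (57% of all genes) and for 4 in DMSO (49.5%).

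The design also asks what MCHP did within each state. In M1 cells TXNRD1 had the clearest difference, with 133, 133 and 140.3 CPM in MCHP libraries against 112, 113 and 117 CPM in DMSO libraries, and no member passed the test. The means were 136 ± 4.10 CPM with MCHP and 114 ± 2.63 with DMSO (SD, n = 3 each), and the log2 fold change was 0.25 ± 0.055 (SE, 95% interval 0.13 to 0.36, adjusted p = 0.12 by edgeR over all genes). By edgeR 0 of 10 members passed in M1, beside 0.0852% of all genes, and the median log2 fold change of the members was 0.050. TXNRD1 was the 1 member with an unadjusted p under 0.05, beside 817 of all 15252 genes (5.36%), DESeq2 called 1 member (TXNRD1, adjusted p = 0.0027) and limma-voom 0. TXNRD1 also passed when the 6 M1 libraries were fitted alone (adjusted p = 0.00057) and in the fit without M2 DMSO replicate 1 (0.0023), with a fold change of 0.25 on the log2 scale. These fits also called more genes in all. The main fit called 11 higher and 2 lower, DESeq2 32 and 23, the 6 M1 libraries alone 149 and 146, and the fit without M2 DMSO replicate 1 79 and 80.

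The other members in M1 differed little beside their error. The log2 fold changes of MCHP over DMSO were -0.055 for NFE2L2, 0.053 for KEAP1, 0.031 for SLC7A11, 0.076 for GCLC, 0.047 for GCLM and -0.033 for TXN. For the sparsely counted SRXN1, NQO1 and OSGIN1 the intervals were -0.24 to 0.79, -0.46 to 0.33 and -0.46 to 0.80, so differences within these intervals are not excluded. The MCHP and DMSO groups did not overlap for 3 members, GCLC, TXNRD1 and SRXN1, beside 15.9% of all genes. GCLC stood at 90.4 ± 2.25 CPM with MCHP and 85.7 ± 0.754 CPM with DMSO (SD, n = 3 each), and SRXN1 at 3.64 ± 0.168 CPM with MCHP and 3.01 ± 0.325 CPM with DMSO.

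In M2 cells the member with the largest difference for its error was NFE2L2 itself, and it was lower with MCHP in all 3 libraries without passing the test. It had 121, 129 and 118 CPM in M2 MCHP libraries, against 182, 140.4 and 133 CPM in M2 DMSO libraries. The log2 fold change was -0.31 ± 0.089 (SE, 95% interval -0.49 to -0.12, adjusted p = 0.053 by edgeR). The size rests in part on M2 DMSO replicate 1, without which it was -0.15 (adjusted p = 0.056). Without M2 DMSO replicate 2 or 3 it was -0.36 and -0.39 and passed (adjusted p = 0.041 and 0.013), and in the 6 M2 libraries alone it did not (adjusted p = 0.23).

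By edgeR 0 of 10 members passed in M2, where 5.11% of all genes did (2.92% higher and 2.18% lower with MCHP), and the members' median log2 fold change was 0.025. With library size alone 306 genes were higher and 465 lower, against 446 and 333 with TMM. DESeq2 called 599 genes higher and 412 lower, and limma-voom 478 and 314. An unadjusted p under 0.05 was found for 4 members, beside 2863 of all 15252 genes (18.8%), and DESeq2 called 1 (NFE2L2, adjusted p = 0.021) and limma-voom 0. Beside NFE2L2 these 4 were GCLM (-0.23 ± 0.085, log2 fold change and SE, adjusted p = 0.14), SLC7A11 (-0.14 ± 0.065, adjusted p = 0.26) and TXNRD1 (0.13 ± 0.054, adjusted p = 0.19). TXNRD1 had 182, 183 and 178 CPM in M2 MCHP libraries against 168, 168 and 160.2 CPM in M2 DMSO libraries, so that its 3 MCHP libraries were above the 3 DMSO libraries in M2 as in M1. NFE2L2 and TXNRD1 were the 2 members whose groups did not overlap, beside 20.8% of all genes. Mitochondrial genes held 3.64, 3.71 and 4.28% of the counts in M2 MCHP libraries, against 3.23, 3.12 and 3.10% in M2 DMSO libraries. These groups did not overlap, and in M1 they did (2.99, 3.24 and 3.03% with MCHP, against 2.87, 2.86 and 3.16% with DMSO). The part of this share in the MCHP differences in M2, of these genes and of those related to them, was not tested.

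The remaining members in M2 did not separate. GCLM had 35.8, 32.4 and 33.3 CPM in M2 MCHP libraries against 39.5, 43.9 and 35.6 CPM in M2 DMSO libraries, which overlapped at one library each. GCLC (0.063, 95% interval -0.055 to 0.18) and NQO1 (-0.012, -0.36 to 0.34) had small log2 fold changes. For TXN (-0.24) and KEAP1 (0.10) the sign turned to 0.022 and -0.041 without M2 DMSO replicate 1. SRXN1 had 3.74, 5.63 and 3.83 CPM in M2 MCHP libraries against 2.65, 4.83 and 2.74 CPM in M2 DMSO libraries, a log2 fold change of 0.38 (-0.11 to 0.86, adjusted p = 0.41). OSGIN1 gave 0.37 (-0.25 to 0.98, adjusted p = 0.55).

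**Figure D3:**
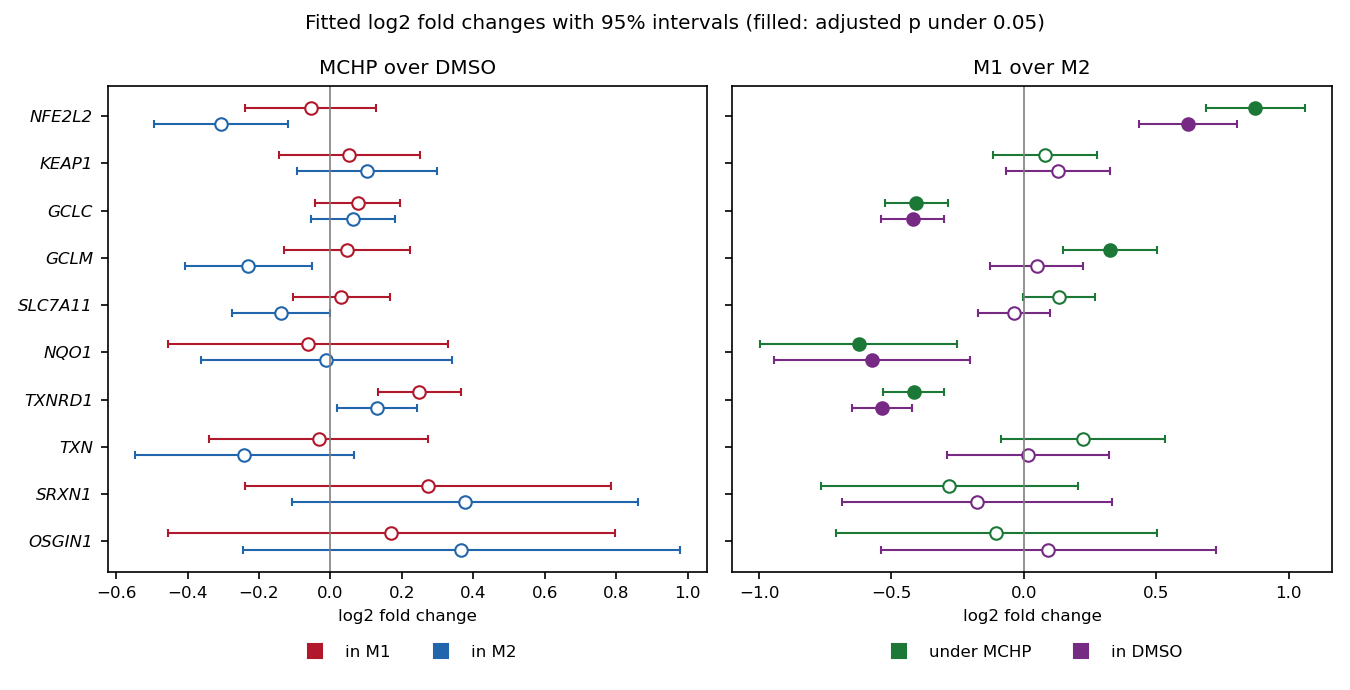
Fitted log2 fold changes with 95% intervals for each gene, MCHP over DMSO in M1 and in M2 (left) and M1 over M2 under MCHP and in DMSO (right); filled points have an adjusted p under 0.05. No point is filled on the left, and on the right NFE2L2, GCLC, NQO1 and TXNRD1 are filled in both comparisons and GCLM under MCHP.

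Whether the response to MCHP differed between M1 and M2 was tested as the difference of both fold changes, M1 minus M2. By edgeR 0 of 10 members passed, beside 0.164% of all genes, and DESeq2 and limma-voom also called 0. One member, GCLM, had an unadjusted p under 0.05, beside 1349 of all 15252 genes (8.84%), with a difference of 0.28 ± 0.12 on the log2 scale (SE, adjusted p = 0.52). For NFE2L2 the difference was 0.25 ± 0.12 (adjusted p = 0.59), and for TXNRD1 0.12 ± 0.077 (adjusted p = 0.71). The MCHP comparison in M2 and the polarization comparison in DMSO share the M2 DMSO libraries, so their values are not independent.

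Genes around the pathway were taken from 4 lists: 16 regulators and partners of NRF2, 27 genes of glutathione synthesis, recycling and use, 18 of the thioredoxin and peroxiredoxin system, and 34 other NRF2 targets, of which 27 were tested. The lists were chosen with earlier results of these data known, so counts within them are not independent of these data. In M2 cells 8 of these 88 genes rose with MCHP by edgeR and 0 fell, beside 2.92% of all genes higher and 2.18% lower. An unadjusted p under 0.05 was found for 24 of them, beside 18.8% of all genes, and limma-voom called the same number, 8 higher and 0 lower. The counts depended on the fit, as did those over all genes. Without M2 DMSO replicate 1, 13 of the 88 were higher and 2 lower (GPX1 and HAGH), beside 983 and 764 of all genes. With the 6 M2 libraries alone 2 were higher, beside 104 higher and 79 lower of all genes. Of the 88 only GSTK1 fell with DESeq2 (10 higher), with library size alone (8 higher) and without M2 DMSO replicate 2 (7 higher). With no filter only PRDX1 did (9 higher). Over all genes DESeq2 called 599 higher and 412 lower, and library size alone 306 and 465. The fit without M2 DMSO replicate 2 called 353 and 259, the fit with no filter 624 and 469, and limma-voom 478 and 314.

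In M1 cells 0 of the 88 passed by edgeR, beside 0.0852% of all genes, with 7 at an unadjusted p under 0.05 (5.36% of all genes) and 0 by DESeq2 and by limma-voom. In the 6 M1 libraries alone 4 were higher with MCHP (MGST1, SESN2, SLC6A6 and SQSTM1), without M2 DMSO replicate 1 4 were (ABCC3, MGST1, SESN2 and SLC6A6), and with no filter 1 was (MGST1). Over all genes the 6 M1 libraries gave 149 higher and 146 lower. The fit without M2 DMSO replicate 1 gave 79 and 80, and no filter 43 and 33. For the 8 genes that rose in M2, the log2 fold changes in M1 were 0.14 for MAFF, 0.14 for SQSTM1, 0.40 for MGST1, -0.017 for MSRB1, 0.21 for SLC6A6, 0.12 for AKR1B1, 0.20 for BLVRA and 0.43 for ABCC3. The M1 MCHP libraries were all above the M1 DMSO libraries for 6 of them, and the groups overlapped for MSRB1 and BLVRA. Over all genes these groups did not overlap, in either direction, for 15.9%. For the difference between the states, M1 minus M2, 0 passed by edgeR, beside 0.164% of all genes, with 7 at an unadjusted p under 0.05 (8.84% of all genes) and 0 by limma-voom. DESeq2 called 1 lower (MSRB1), the fit with no filter 1 lower (FTH1), and the fit without M2 DMSO replicate 1 called 4 lower (GLO1, MGST1, MSRB1 and SQSTM1). Over all genes DESeq2 called 46 higher and 49 lower for this difference, and the fit with no filter 77 and 93. The fit without M2 DMSO replicate 1 called 168 and 217. The genes named for single fits were picked after their values were seen.

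The median log2 fold change in M2 was 0.097 for regulators, -0.023 for glutathione genes, 0.039 for thioredoxin genes and 0.19 for other targets, against -0.000336 for all genes.

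Among regulators, MAFF and SQSTM1 rose with MCHP in M2. MAFF is one of the small MAF proteins with which NRF2 pairs on DNA, and it had 134, 133 and 137 CPM in M2 MCHP libraries against 91.3, 104 and 108 CPM in M2 DMSO libraries (log2 fold change 0.41 ± 0.064, SE, adjusted p = 0.00077). SQSTM1 (p62) is the autophagy receptor that binds KEAP1, and it had 789, 799 and 772 CPM with MCHP against 658, 607 and 625 CPM with DMSO (0.32 ± 0.050, adjusted p = 0.00085). In both genes every MCHP library was above every DMSO library.

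The single glutathione gene that rose was MGST1, a microsomal glutathione transferase, with 70.4, 76.4 and 63.3 CPM in M2 MCHP libraries against 60.2, 39.5 and 37.8 CPM in M2 DMSO libraries (0.62 ± 0.13, adjusted p = 0.0074). MSRB1, which reduces oxidized methionine in proteins, had 49.00, 46.1 and 43.8 CPM with MCHP against 35.7, 34.4 and 36.5 CPM with DMSO (0.38 ± 0.065, adjusted p = 0.0018). M2 DMSO replicate 1 was the highest DMSO library for MGST1, and without it the log2 fold change was 0.86 (adjusted p = 6.0e-09).

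Among other targets 4 rose. The taurine transporter SLC6A6 had 140.4, 147 and 144 CPM in M2 MCHP libraries against 102, 109 and 116 CPM in M2 DMSO libraries (0.41 ± 0.060, adjusted p = 0.00052). Aldose reductase AKR1B1 averaged 205 ± 4.41 CPM with MCHP and 172 ± 10.2 CPM with DMSO (SD, n = 3 each, adjusted p = 0.013). Biliverdin reductase BLVRA averaged 15.6 ± 1.89 CPM with MCHP and 10.98 ± 0.209 CPM with DMSO (adjusted p = 0.021). The organic anion exporter ABCC3 averaged 26.8 ± 1.37 CPM with MCHP and 20.4 ± 2.35 CPM with DMSO (adjusted p = 0.022). When the 6 M2 libraries were fitted alone, MAFF (adjusted p = 0.042) and SLC6A6 (0.033) passed, and the other 6 did not, at adjusted p of 0.052 to 0.17. BLVRA lost its call when replicate 1 or 2 of M2 MCHP or replicate 2 of M2 DMSO was left out (0.057, 0.099 and 0.056), and ABCC3 when replicate 1 or 3 of M2 MCHP or replicate 3 of M2 DMSO was (0.11, 0.061 and 0.066).

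**Figure D4:**
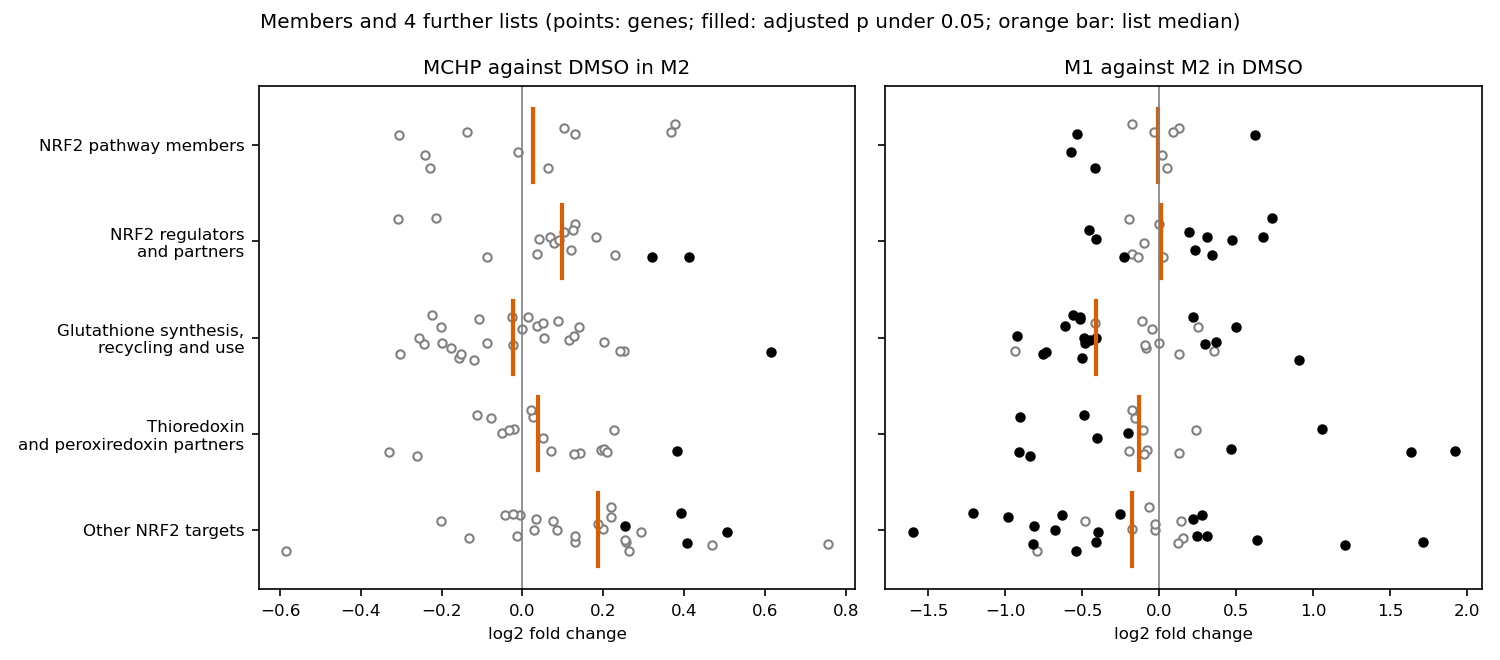
Log2 fold changes of every tested gene of the 5 lists, MCHP against DMSO in M2 (left) and M1 against M2 in DMSO (right); filled points have an adjusted p under 0.05 and orange bars are list medians. On the left the 8 filled points all lie above 0 and none belongs to the top list, while on the right filled points lie on both sides in every list.

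Between M1 and M2 genes of each list passed in both directions. Under MCHP 23 of the 88 genes were higher in M1 and 37 lower, beside 21.9% and 22.7% of all genes, and in DMSO 23 were higher and 32 lower, beside 21.6% and 20.9%. The counts of higher genes are near the background share. With library size alone 18 were higher and 42 lower under MCHP, beside 2678 and 4338 of all genes. In DMSO 15 were higher and 43 lower with it, beside 2395 and 4532 of all genes. These percentages are also the background of the counts given for each list. The medians under MCHP were -0.013 for regulators, -0.26 for glutathione genes, -0.13 for thioredoxin genes and -0.27 for other targets, against -0.000522 for all genes. In DMSO they were 0.012, -0.41, -0.13 and -0.18 in the same order, against -0.00429 for all genes.

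Of 16 regulators, 6 were higher and 5 lower in M1 under MCHP, and 7 were higher and 3 lower in DMSO. BACH1, the repressor that competes with NRF2 for its sites, averaged 275 ± 3.98 CPM in M1 MCHP and 185 ± 9.14 in M2 MCHP libraries (log2 fold change 0.57 ± 0.054, SE, adjusted p = 6.2e-08). In DMSO it averaged 260.01 ± 3.52 CPM in M1 and 163 ± 3.51 in M2 libraries (0.67 ± 0.054, adjusted p = 7.0e-09). The NRF2 relatives NFE2L1 (0.37 under MCHP and 0.47 in DMSO, adjusted p = 0.00019 and 1.3e-05) and NFE2L3 (0.97 and 0.73, 8.7e-08 and 2.9e-06) were higher in M1 as well. FBXW11, a β-TrCP protein that recognizes phosphorylated NRF2 for degradation, was lower in M1 (-0.58 and -0.45, 5.6e-08 and 1.7e-06).

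Of 27 glutathione genes, 5 were higher and 12 lower in M1 in each of these comparisons. Glutathione reductase GSR averaged 29.99 ± 0.873 CPM in M1 MCHP and 59.5 ± 2.14 in M2 MCHP libraries (-0.99 ± 0.069, adjusted p = 8.0e-10), and 28.7 ± 0.930 CPM in M1 DMSO and 54.5 ± 1.72 in M2 DMSO libraries (-0.92 ± 0.069, adjusted p = 2.3e-09). The transferase GSTP1 (-0.69 under MCHP and -0.61 in DMSO) and the peroxidase GPX1 (-0.31 and -0.48) were lower in M1, with adjusted p of 0.0021 or less. Glutaredoxin GLRX was higher in M1 (0.88 and 0.91, adjusted p = 1.1e-06 and 6.3e-07).

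In the thioredoxin and peroxiredoxin list, 4 genes were higher and 7 lower in M1 under MCHP, and 4 higher and 6 lower in DMSO. TXNIP, which binds and inhibits thioredoxin, averaged 1155 ± 23.02 CPM in M1 MCHP and 533 ± 48.2 in M2 MCHP libraries (1.12 ± 0.068, adjusted p = 1.2e-10), and 1124 ± 34.95 CPM in M1 DMSO and 541 ± 44.2 in M2 DMSO libraries (1.06 ± 0.068, adjusted p = 2.9e-10). The peroxiredoxins PRDX1 (-0.60 under MCHP and -0.84 in DMSO), PRDX2 (-0.89 and -0.91) and PRDX6 (-0.53 and -0.41) were lower in M1, with adjusted p of 5.2e-05 or less. PRDX1 had 113, 83.7 and 85.3 CPM in M2 DMSO libraries, so its larger value in DMSO rests in part on replicate 1. MSRB1 was higher in M1 (1.52 and 1.92, adjusted p = 4.0e-13 and 1.6e-14).

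Other targets split as well, with 8 higher and 13 lower in M1 under MCHP and 7 higher and 11 lower in DMSO. Ferritin heavy chain FTH1, the iron store, averaged 6217 ± 216 CPM in M1 MCHP and 2282 ± 112 in M2 MCHP libraries (1.45 ± 0.16, adjusted p = 5.7e-07), and 6278 ± 322 CPM in M1 DMSO and 1910.1 ± 656 in M2 DMSO libraries (1.72 ± 0.16, adjusted p = 6.5e-08). The M2 DMSO libraries had 1153, 2304 and 2273 CPM of FTH1, so the low mean and wide SD there rest on replicate 1. FTH1 has many processed pseudogenes, so its counts are uncertain. Heme oxygenase HMOX1 went the other way, at 117 ± 2.43 CPM in M1 MCHP and 181 ± 7.40 in M2 MCHP libraries (-0.63 ± 0.074, adjusted p = 1.2e-06), and 111 ± 4.997 CPM in M1 DMSO and 177 ± 20.7 in M2 DMSO libraries (-0.68 ± 0.074, adjusted p = 4.8e-07). AKR1B1 (-0.95 under MCHP and -0.81 in DMSO) and ABCC3 (-1.17 and -1.21) were also lower in M1, with adjusted p of 2.3e-08 or less. Of the 7 targets too low to test, AKR1B10, CBR1, ALDH3A1 and ALDH1A1 had 0 counts, and AKR1C2 had 29, AKR1C3 5 and TRIM16L 45 counts over all libraries.

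The genes whose pattern over the 12 libraries was most like that of NFE2L2 were FCGR2A, FAM111A and C5orf15, among 10113 genes with a mean of at least 5 CPM. The measure was the root mean square difference in log2 CPM after centring each gene over the 12 libraries, which was 0.0536 for FCGR2A, 0.0740 for FAM111A and 0.0765 for C5orf15.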

How the data were processed

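Polyadenylated RNA was measured in 12 libraries of 4 groups, grouped by GEO's labels. The deposited table holds raw read counts per gene, not normalized by the authors, beside gene model length and position, per the file headers. Per the submitters' processing notes the build was hg38, and featureCounts (1.5.0-p3), StringTie (1.3.3b), HISAT2 (2.0.5), DESeq2 (1.20.0) and fastp are named without roles. A strand setting is not given in the sources used here, so a gene and a partner on the other strand cannot be told apart.

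The fit used edgeR 4.0.16 (R 4.3.3): filterByExpr over the 4 groups (15252 of 58907 genes kept; 26650 had no count), TMM scaling, 1 mean per group over all 12 libraries (8 residual degrees of freedom), two-sided quasi-likelihood F-tests, and Benjamini-Hochberg adjustment over the genes tested with a threshold of 0.05. Standard errors and 95% intervals follow from the F statistic. The 5 comparisons were, in order, MCHP against DMSO within M1 and within M2, their difference, and M1 against M2 under MCHP and in DMSO. CPM are TMM-scaled; depth was 14352202 to 16871233 counts per library, which limits genes under about 100 counts. The steps were tested on simulated counts. Exact permutation tests were used for ratios.

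All 10 members are reported. From 4 further lists, genes with a mean of at least 5 CPM that passed were named, at most 4 of the smallest p per list and comparison, with the 3 genes most like NFE2L2. Members, the 13 lists (8 of cell type and polarization markers) and tests were chosen with earlier results of these data known. Promoter windows come from RefSeq (GRCh38.p14); sequences are matched by symbol. Alternatives were DESeq2 size factors, library size alone, no filter, DESeq2 1.42.0, limma-voom (limma 3.58.1), a replicate block, the 6 libraries compared, and each library left out in turn.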

Additional observations from a re-analysis of the deposited data

How the results depend on the processing

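SRXN1, OSGIN1 and NQO1 had few counts, and their intervals reach about 1 log2 unit. Between M1 and M2 the calls of NFE2L2, GCLC and TXNRD1 held, with their direction, under every alternative run. The number of members that passed, 0 for MCHP in M1, became 1 (TXNRD1) with DESeq2 and with the 6 libraries compared, and was 0 to 1 with a library left out. For MCHP in M2 it was 0, and 1 (NFE2L2) with library size alone (-0.35, adjusted p = 0.032), with no filter (0.0012), with DESeq2 and with the replicate block, and 0 to 1 with a library left out. For the difference it stayed at 0, under MCHP it was 5 to 7 between M1 and M2 with a library left out (5 in the fit of all), and in DMSO 3 to 5 (4 in the fit of all). Counts over all genes moved as well. Under MCHP 3342 were higher and 3462 lower in M1 in the fit of all. They were 3934 and 4080 without M2 DMSO replicate 1, and 2924 and 2992 without M2 MCHP replicate 1. In DMSO the fit of all gave 3296 and 3193. Without M2 DMSO replicate 1 it was 3663 and 3553, and without M1 DMSO replicate 1 2852 and 2768.

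Replicate numbers share only a label: correlations of same-numbered libraries lay between -0.05 and 0.04. With the replicate block, NFE2L2 for MCHP in M2 was -0.30 (adjusted p = 0.045), no other call among the members changed, and the members that passed numbered 0, 1, 0, 5 and 4 in the 5 comparisons (MCHP in M1, MCHP in M2, their difference, M1 against M2 under MCHP, and in DMSO). Of all genes, the block called 5 higher and 0 lower, 401 and 291, 7 and 17, 3293 and 3407, and 3276 and 3111 in the same order.

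Library size alone shifts the median of all genes by -0.13 for M1 against M2 in DMSO and by -0.09 under MCHP. It turned 4 values that had not passed: KEAP1 under MCHP to -0.010, and in DMSO GCLM to -0.080, TXN to -0.12 and OSGIN1 to -0.036. SLC7A11 in DMSO passed with it (-0.17, adjusted p = 0.047).

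Leaving out 1 library also turned the sign of values that had not passed. The log2 ranges for MCHP in M1 were -0.15 to 0.091 for NQO1, -0.083 to 0.059 for TXN and -0.075 to 0.55 for OSGIN1. In M2 they were -0.041 to 0.19 for KEAP1, -0.10 to 0.11 for NQO1 and -0.38 to 0.022 for TXN. For the difference they were -0.14 to 0.094 for KEAP1, -0.018 to 0.041 for GCLC, -0.18 to 0.10 for NQO1, -0.054 to 0.34 for TXN, -0.44 to 0.12 for SRXN1 and -0.44 to 0.18 for OSGIN1. Between M1 and M2 the range was -0.31 to 0.10 for OSGIN1 under MCHP, and in DMSO -0.016 to 0.21 for KEAP1, -0.024 to 0.13 for GCLM, -0.12 to 0.28 for TXN, -0.33 to 0.16 for SRXN1 and -0.29 to 0.34 for OSGIN1.

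Over all genes, 13 passed for MCHP in M1, against 76 with no filter, 55 with DESeq2, 5 with the replicate block, 295 in the 6 libraries alone and 1 to 159 with a library left out. In M2 779 passed, against 183 in the 6 libraries alone and 383 to 1747 with a library left out. For the difference 25 passed, against 170.0 with no filter, 95 with DESeq2 and 5 to 385 with a library left out. Among the fits with a library left out, the highest count in each of the 3 is the one without M2 DMSO replicate 1. The causes were not tested.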

Other observations

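The balance within 2 enzyme pairs was computed after their values were seen, as a ratio of length-scaled levels in each library. The ratio of GCLC to GCLM, catalytic to modifier subunit of glutamate-cysteine ligase, was 1.31, 1.32 and 1.39 in M1 MCHP, 1.40, 1.25 and 1.296 in M1 DMSO, 2.12, 2.30 and 2.24 in M2 MCHP and 1.90, 1.58 and 2.01 in M2 DMSO libraries. Every M2 library lay above every M1 library, and in M2 every MCHP library lay above every DMSO library. The log2 difference M1 minus M2 was -0.73 under MCHP and -0.47 in DMSO, and MCHP minus DMSO was 0.29 in M2, each with p = 0.1 in a two-sided exact permutation test, the smallest p that 3 against 3 libraries allow. In M1, MCHP minus DMSO was 0.03 (exact permutation p = 0.6).

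The ratio of TXNRD1 to TXN, thioredoxin reductase to its substrate, averaged 0.592 ± 0.0661 in M1 MCHP, 0.482 ± 0.00877 in M1 DMSO, 0.923 ± 0.0973 in M2 MCHP and 0.740 ± 0.184 in M2 DMSO libraries (SD, n = 3 each). M1 minus M2 was -0.64 under MCHP and -0.59 in DMSO on the log2 scale (exact permutation p = 0.1 for each, two-sided). MCHP minus DMSO was 0.29 in M1 (p = 0.1, exact permutation) and 0.35 in M2 (p = 0.2, exact permutation), where M2 DMSO replicate 1 had the lowest ratio of its group, 0.536. These 8 tests were not adjusted, since none could pass 0.05 in this design.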
